A study of Mus musculus with 6 samples.

Results

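Albumin and 8 other genes whose products the liver secretes into blood were examined in the livers of mice that lack the kinase NEK7 in hepatocytes. The 9 genes were taken by name: Alb, Ahsg, Fetub, Gc, Ambp, Angptl8, Inhbc, Inhbe and Hpx. All 9 were among the 17975 genes of the deposited table, and all 9 were among the 13805 genes with enough counts to be tested. Hepatocytes make most plasma proteins. Some of these proteins carry ligands in blood, such as albumin, the vitamin D carrier encoded by Gc and the heme carrier hemopexin, while others act as hormones on distant tissues and are called hepatokines. Because the promoter of Alb is active almost only in hepatocytes, it also drives Cre recombinase in many liver-specific knockouts, and it did so here.

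The study compared liver tissue from 3 mice labelled as NEK7 hepatocyte knock-out (Hom) and 3 mice labelled WT, to ask which genes change when hepatocytes lack NEK7. Per the paper's methods, Hom mice were homozygous for a floxed Nek7 allele (NEK7 fl/fl) and carried Alb-Cre, on a C57BL/6 background. Whether the 3 sequenced WT mice carried a floxed allele or Cre is not given in the sources used here. Neither is the age or sex of the 6 sequenced mice, nor the hour at which the livers were taken. The paper's reporting summary gives a general age range for its mice. It also states that knock-out experiments included both sexes, without naming the sequenced mice. No mouse received a treatment.

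Each liver held between 19349418 and 19730236 estimated counts. Nek7 was at 62.9, 69.1 and 63.7 normalised CPM (counts scaled by library size and TMM factors) in the WT livers and at 14.5, 18.1 and 16.7 in the Hom livers, so the 3 Hom libraries carried the loss that their label states. Hom replicate 1 stood apart in sex-linked transcripts: no read was assigned to Ddx3y or Kdm5d, which are on the Y chromosome, whereas each of the other 5 livers had 243 counts or more of both. Of the other Y-linked genes Eif2s3y had 4 and Uty 149 counts in it, against at least 582 and 464 in the other livers. Without this liver Alb and Inhbc were still called lower (Inhbc at -1.26, adjusted p = 0.00348), Ambp and Inhba changed sign without passing the test, and of the other genes named below Hp and Fgl1 lost their calls. Markers of several cell types also moved with genotype. Of 20 hepatocyte markers, 15 were lower in Hom livers and none was higher (9 lower without WT replicate 2, 8 without Hom replicate 3 and 8 with library size alone, without TMM factors), and their summed level was 76934 to 89452 CPM in WT and 34804 to 42532 CPM in Hom livers. Cholangiocyte markers rose in 11 of 12 (summed level 75.7 to 106 against 646 to 914 CPM), and stellate and fibroblast markers rose in 8 of 12 (347 to 407 against 758 to 833 CPM) with 1 lower. All 10 proliferation markers were higher (4 without Hom replicate 2, 6 without Hom replicate 3, 3 when at least 10 counts were asked of each liver). Of 12 endothelial markers 6 were lower and 1 higher, or 4 and 3 with library size alone, and of 12 macrophage markers 2 were lower and 3 higher, or 1 and 6 with library size alone and also without WT replicate 1. Of the lymphocyte, neutrophil and erythroid markers tested 1, 0 and 0 were higher, but 2, 2 and 4 without WT replicate 1; 1 erythroid marker was lower. WT replicate 1 stood apart in these markers, with 1021 counts of the neutrophil gene Ngp against 0 and 1 in the other WT livers and 8553 counts of the hemoglobin gene Hba-a1 against 2699 and 1976. Beside every value below, fewer hepatocytes in the tissue and less RNA per hepatocyte cannot be told apart.

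The stretches of DNA just upstream of 4 of the genes are shown because these genes had the livers of the 2 groups apart in normalised CPM. Alb and Inhbc fell, and Hpx was higher in each Hom liver. Gc, the close relative of Alb, stayed near its WT level. Each stretch is the 250 bases before the RefSeq start on the GRCm38.p6 build, read 5′ to 3′ on the gene's own strand. RefSeq starts differ from the GENCODE gene positions printed below. The Alb stretch ends short of the GENCODE gene, and the Hpx stretch overlaps it. Those of Ahsg, Ambp and Inhbe, used in the motif counts, lie inside the GENCODE genes. They lie at chr5:90460620-90460869 on the plus strand (Alb), chr5:89457899-89458148 on the minus strand (Gc), chr10:127370549-127370798 on the minus strand (Inhbc) and chr7:105600117-105600366 on the minus strand (Hpx). Capitals mark every match, on either strand, to 5 short motifs: GTTAAT, a half-site of the hepatocyte factor HNF1; CCAAT, a general promoter box; TATAAA, the TATA box; TTNNGCAA, a core of C/EBP sites; and CAAAGTCCA, an HNF4 element.
Alb: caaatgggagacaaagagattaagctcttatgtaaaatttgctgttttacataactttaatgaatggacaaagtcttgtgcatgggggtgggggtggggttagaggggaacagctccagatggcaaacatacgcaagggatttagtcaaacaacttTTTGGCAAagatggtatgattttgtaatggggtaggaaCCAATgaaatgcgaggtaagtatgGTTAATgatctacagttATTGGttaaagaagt
Gc: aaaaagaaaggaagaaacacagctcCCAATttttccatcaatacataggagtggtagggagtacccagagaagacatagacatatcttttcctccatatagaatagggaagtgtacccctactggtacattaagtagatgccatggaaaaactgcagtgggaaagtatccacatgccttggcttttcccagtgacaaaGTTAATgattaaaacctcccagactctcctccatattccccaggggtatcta
Inhbc: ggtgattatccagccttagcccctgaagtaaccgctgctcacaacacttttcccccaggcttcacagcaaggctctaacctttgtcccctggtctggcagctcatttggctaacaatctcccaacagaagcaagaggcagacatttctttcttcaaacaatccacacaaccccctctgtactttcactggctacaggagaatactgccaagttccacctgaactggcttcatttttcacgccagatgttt
Hpx: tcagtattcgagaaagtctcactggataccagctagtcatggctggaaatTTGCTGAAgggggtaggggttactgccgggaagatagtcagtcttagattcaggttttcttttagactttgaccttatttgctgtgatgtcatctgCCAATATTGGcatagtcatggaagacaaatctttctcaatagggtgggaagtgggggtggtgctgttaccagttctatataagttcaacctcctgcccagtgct

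The HNF1 half-site was present upstream of 2 of the 9 genes, Alb (bases -32 to -27 from the start) and Gc (bases -52 to -47), against 6.43% of 32851 promoters of the same length. The C/EBP core stood upstream of Alb, Ahsg, Angptl8 and Hpx and in 9.56% of all promoters. CCAAT was found in 6 of the 9 genes and in 33.8% of promoters, the TATA box in Fetub alone of the 9 and in 12.4% of promoters, and the HNF4 element in none of the 9 and in 0.384% of promoters. Upstream of Inhbc none of the 5 motifs matched, so its sequence carries no capitals. The motifs did not sort the genes by their change: Alb and Gc shared the HNF1 half-site and CCAAT, and Alb and Hpx shared CCAAT and the C/EBP core.

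Alb and Inhbc fell by more than 2-fold in Hom livers, and no other of the 9 genes passed the test in either direction. The 2 genes that were lower are to be read against 20.1% of all tested genes called lower (2780 of 13805) and 21.5% called higher. The TMM factors behind these CPM values equalise the bulk of genes between libraries, and p-values were adjusted over all 13805 genes. In normalised CPM the 3 Hom and the 3 WT livers did not overlap for Alb, Gc and Inhbc, below WT, and for Hpx, above WT. On that scale 27% of all tested genes lay wholly below and 28.7% wholly above. As a share of all counts Gc was apart the other way, with every Hom liver above every WT liver. By the share called lower, 22.2% against 20.1%, the 9 genes thus stood near the background of this comparison. None was called higher, against 21.5%. With library size alone 2 of the 9 were lower, against 4.65% of all tested genes, and 1 was higher, against 47.6%.

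**Figure D1:**
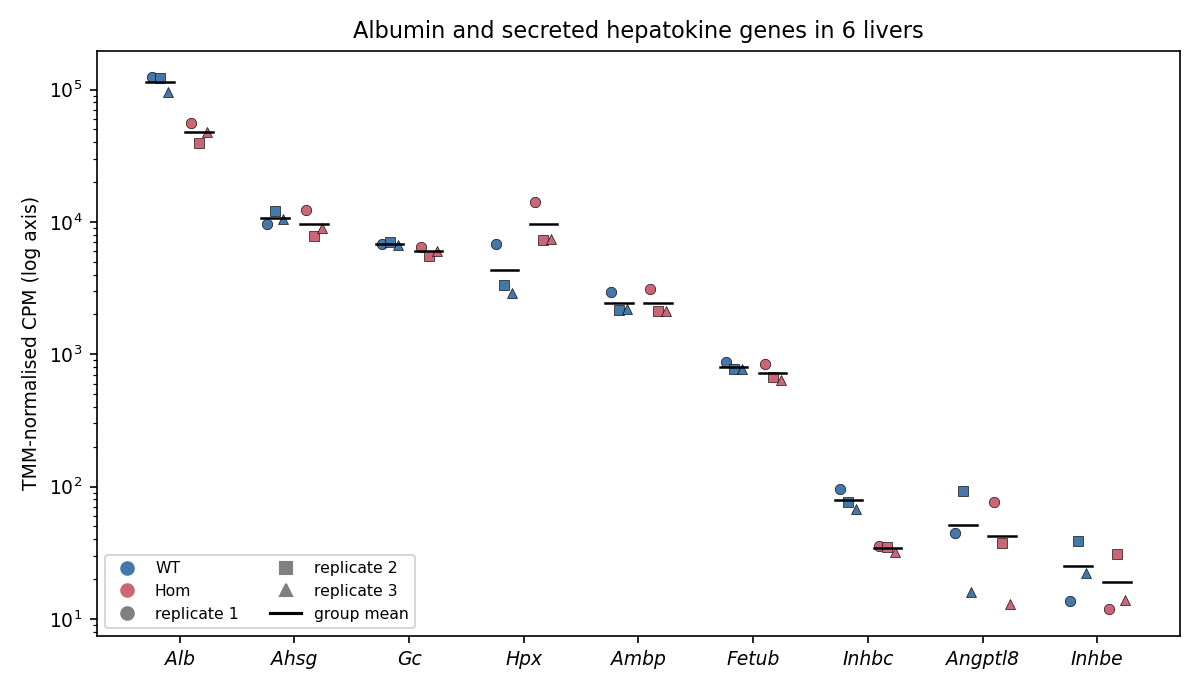
TMM-normalised CPM (log axis) of the 9 genes in each liver, WT in blue and Hom in red, with marker shapes for replicates and bars for group means of 3 livers. The 3 Hom livers lie below all WT livers for Alb, Gc and Inhbc and above them for Hpx, and Angptl8 and Inhbe spread widely within both groups.

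Albumin is the main protein of plasma and sets much of its oncotic pressure. Alb (chromosome 5, bases 90460897 to 90476602 on the plus strand of GRCm38, GENCODE M21) was measured at 123821, 122328 and 96358.5 CPM in the WT livers and at 55768, 39606 and 47692 CPM in the Hom livers. The highest Hom liver lay well under the lowest WT liver. The fall was 2.39-fold (log2 fold change -1.26, SE 0.27, adjusted p = 0.00991). Without Hom replicate 3 the value stayed at -1.26 with an adjusted p of 0.0639, and without Hom replicate 1 it was -1.39 with an adjusted p of 0.00682. In TPM, which accounts for gene length, Alb was nevertheless the most abundant transcript of every liver, at 82288 ± 17792 (SD, n = 3) in WT and 52128 ± 5355 (n = 3) in Hom livers.

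Alb took up 11.4%, 9.86% and 8.05% of all counts in the WT livers and 6.06%, 4.88% and 5.71% in the Hom livers (exact two-sided permutation p = 0.1, the smallest that 3 against 3 livers can give). The other 8 genes together moved the other way as a share of counts, from 2.51%, 2.06% and 1.93% to 4.02%, 2.92% and 3.01%. Among them Hpx rose most, from 0.633%, 0.267% and 0.243% to 1.55%, 0.902% and 0.882%, while Inhbc fell. With library size alone the median log2 fold change of all tested genes was also positive, at 0.45. All 9 together took 11.9% ± 1.98 (SD, n = 3) of counts in WT and 8.86% ± 1.14 (n = 3) in Hom livers, and these ranges overlapped (exact permutation p = 0.2). In normalised CPM their summed level did not overlap, at 119497 to 151034 in WT and 63269 to 92766 in Hom livers.

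Alb stands in a cluster with Afp and Afm, 2 further members of the albumin family, and Gc lies farther off on the same chromosome. Afm, which encodes the vitamin E carrier afamin, fell from 337, 326 and 291 CPM to 86.0, 104 and 94.0 CPM (log2 fold change -1.75, adjusted p = 0.000252). Afp, the fetal counterpart of albumin, stood at 0.71 to 1.97 CPM in WT and at 2.16 to 3.45 CPM in Hom livers (1.09, adjusted p = 0.0674). It passed the test in 4 of 14 alternative analyses, among them library size alone (adjusted p = 0.0169). In normalised CPM the Hom livers thus lay above the WT livers for Afp and below them for the other 3 genes of the family. For Gc this order turned as a share of counts, as given below.

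Gc, the vitamin D carrier that also binds free actin, was at 6827, 7029 and 6737 CPM in WT and at 6445, 5547 and 6009 CPM in Hom livers. The ranges did not overlap, but the gap was small: the log2 fold change was -0.19 (95% interval -0.57 to 0.19, adjusted p = 0.362). The interval does not reach the fall of Alb. As a share of all counts Gc was also apart, but with the Hom livers above. It took 0.630%, 0.566% and 0.563% in WT and 0.700%, 0.684% and 0.719% in Hom livers. Gc had the narrowest spread of the 9 genes within the WT group, with a highest to lowest liver ratio of 1.04.

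Hemopexin, encoded by Hpx (chromosome 7, bases 105591613 to 105600137 on the minus strand of GRCm38), binds free heme in plasma and is an acute-phase protein in rodents. Hpx was at 6859, 3312 and 2903 CPM in the WT livers and at 14234, 7314 and 7373 CPM in the Hom livers. WT replicate 1 held more than 2 times as much as either other WT liver, Hom replicate 1 nearly as far above the other Hom livers, and yet every Hom liver exceeded every WT liver. The log2 fold change was 1.15 (SE 0.42, 95% interval 0.14 to 2.15), which missed the threshold after adjustment with edgeR (adjusted p = 0.0663, from an unadjusted value of 0.0304) and with DESeq2 (adjusted p = 0.0703). Without WT replicate 1 the value was 1.63 and passed (adjusted p = 0.0195), and without Hom replicate 1 it was 0.75 and did not (adjusted p = 0.165). Hba-a1 counts were also highest in replicate 1 of both groups (8553 in WT and 14827 in Hom), and WT replicate 1 held the most Ngp. The part of blood cells in the Hpx values was not tested.

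Among 8254 genes with a mean of at least 10 CPM, the pattern of Hpx over the 6 livers was nearest to that of Hp, which encodes haptoglobin, the plasma protein that binds free hemoglobin. The root mean square difference of their centred log2 CPM was 0.049, against a range of 2.29 in Hpx itself. Hp read 4229, 2203 and 1879 CPM in WT and 9721, 4801 and 4999 CPM in Hom livers (log2 fold change 1.23, SE 0.41, adjusted p = 0.0483), and it lost its call without a filter on low counts (adjusted p = 0.0542) and without any 1 of 5 livers, all except WT replicate 1 (adjusted p = 0.0625 to 0.149). The second nearest was Orm1 (0.16), the acute-phase protein orosomucoid, at 1.13 with an adjusted p of 0.0668. WT replicate 1 was the highest WT liver and Hom replicate 1 the highest Hom liver for all 3 genes.

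**Figure D2:**
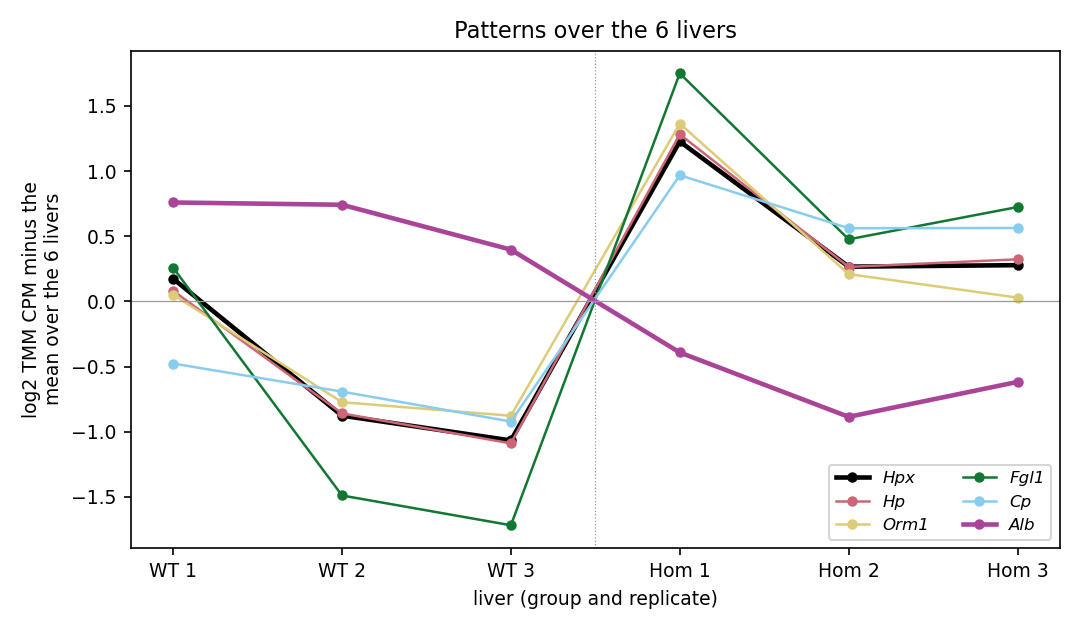
Log2 CPM of Hpx, Hp, Orm1, Fgl1, Cp and Alb in each of the 6 livers, minus each gene's mean over the 6 livers, with lines joining the livers of 1 gene for reading only. Hpx and Hp run within a root mean square of 0.049 of each other, with replicate 1 highest in both groups, while Alb is above its mean in the 3 WT livers and below it in the 3 Hom livers.

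Of 10 genes that clear heme and hemoglobin, 2 were lower and 2 were higher, shares close to those of all tested genes. None was lower without Hom replicate 3, and 1 was higher without any 1 of the 5 livers other than WT replicate 1. Cd163, the macrophage receptor for the haptoglobin and hemoglobin complex, was at 28.9, 14.5 and 13.0 CPM in WT and at 5.13, 0.74 and 1.81 CPM in Hom livers (-2.89, adjusted p = 0.0129; without Hom replicate 3 adjusted p = 0.0536). Slc48a1, a heme transporter, rose by 0.40 on the log2 scale (adjusted p = 0.00929). Ambp, whose precursor is cut into the heme-binding alpha-1-microglobulin and the protease inhibitor bikunin, read 2938, 2166 and 2186 CPM in WT and 3091, 2138 and 2133 CPM in Hom livers. These are overlapping ranges around a log2 fold change of 0.01 (95% interval -0.51 to 0.53, adjusted p = 0.964).

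The fetuins are cystatin-type plasma glycoproteins. Fetuin-A, from Ahsg, keeps calcium phosphate in solution and can inhibit the insulin receptor, and fetuin-B, from Fetub, inhibits the protease that hardens the coat of the egg. Ahsg was at 9567, 12053 and 10440 CPM in WT and at 12258, 7887 and 8977 CPM in Hom livers, and the highest of the 6 values was in a Hom liver (-0.14, 95% interval -0.68 to 0.40, adjusted p = 0.655). Fetub was at 868, 776 and 767 CPM in WT and at 845, 673 and 634 CPM in Hom livers (-0.16, 95% interval -0.52 to 0.19, adjusted p = 0.41). Both genes overlapped between the groups in normalised CPM, and neither interval reached -1. As a share of all counts Fetub still overlapped. For Ahsg every Hom liver then lay above every WT liver (0.973% to 1.33% against 0.872% to 0.971%). They lie side by side on chromosome 16, followed by Hrg, Kng2 and Kng1, which encode further cystatin-type proteins. None of these 5 genes passed the test: Hrg was at -0.42 (adjusted p = 0.0607), Kng1 at -0.28 (adjusted p = 0.298) and Kng2 at -0.08 (adjusted p = 0.79). In DESeq2, Hrg did pass in the same direction.

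Inhbc and Inhbe encode the beta C and beta E subunits of activins and inhibins, ligands of the TGF-beta family that are made mainly by hepatocytes. Activin E from Inhbe acts on adipose tissue, where it restrains lipolysis. Inhbc (chromosome 10, bases 127356322 to 127370431 on the minus strand of GRCm38) was at 95.5, 76.1 and 67.5 CPM in WT and at 35.7, 34.6 and 32.1 CPM in Hom livers. Its Hom livers lay close together and far below the WT livers. The fall was 2.33-fold (log2 fold change -1.22, SE 0.14, adjusted p = 0.00105), and it passed the test in all 14 alternative analyses, with values between -1.34 and -0.78. It had the smallest p of the 9 genes, at rank 545 of the 13805 genes tested.

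Inhbe, the next gene downstream of Inhbc on the same strand, was at 13.7, 39.1 and 22.4 CPM in WT and at 11.9, 30.8 and 13.8 CPM in Hom livers. The highest liver of each group was replicate 2, and the groups overlapped across most of their range. The log2 fold change was -0.41 with a 95% interval from -1.52 to 0.71 (adjusted p = 0.52), wide enough to hold both the fall of Inhbc and no change. The annotated antisense gene Gm47200 overlaps both genes, and a further antisense gene, Gm30505, overlaps Ahsg. The sources used here do not say whether strand was kept, so reads from either strand could not be separated.

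Of 16 tested ligands, receptors and inhibitors of activin signalling, the 9 genes apart, 8 rose and none fell, with a median log2 fold change of 0.36. In DESeq2, and without WT replicate 1, WT replicate 3 or Hom replicate 1, 1 gene of the list was called lower. Fstl3 and Fst, secreted proteins that bind and neutralise activins, rose by 3.13 and 1.45 (adjusted p = 0.00193 and 0.0207). Fst lost its call without WT replicate 3 or Hom replicate 3 (adjusted p = 0.0597 and 0.0738). Inha, the inhibin alpha subunit, rose by 1.88 from under 1 CPM (adjusted p = 0.00849). The type I receptors Acvr1 and Acvr1b rose by 0.52 and 0.64, and Bambi, a decoy receptor, by 1.07. The beta A and beta B subunit genes did not pass: Inhba was at 0.03 (adjusted p = 0.88) and Inhbb at -0.21 (adjusted p = 0.582). Among the 4 beta subunit genes the fall was therefore called for Inhbc alone, and the differences between the 4 were not tested. Stellate cells and other non-parenchymal cells also make several of these transcripts, and the markers of those cells were higher in Hom livers as given above; their part in these values was not tested.

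Angptl8 encodes a feeding-induced protein that helps to set which tissues take up lipoprotein triglyceride through lipoprotein lipase. Angptl8 was at 44.7, 93.1 and 15.9 CPM in WT and at 77.0, 37.4 and 13.0 CPM in Hom livers. It was the most variable of the 9 genes, with a highest to lowest liver ratio of 5.87 in WT and 5.92 in Hom livers. For the 8263 genes with a mean of at least 10 CPM and a count in each liver, the median ratio was 1.19 in WT and 1.16 in Hom livers, and 90% of genes stayed under 1.58 and 1.53. The log2 fold change of -0.27 had a 95% interval from -2.04 to 1.50 (adjusted p = 0.793), so a difference of several-fold in either direction was not detectable with 3 livers a group. Feeding state at collection was not given in the sources used here. Angptl8 lies within Dock6, which is transcribed from the opposite strand. Dock6 varied little, at 26.6 to 32.6 CPM over the 6 livers (-0.17, adjusted p = 0.124).

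Of 9 partners and lipases around ANGPTL8, 6 fell and 2 rose (3 fell without WT replicate 2 or Hom replicate 2). Angptl4, an inhibitor of lipoprotein lipase that fasting raises, was at 224, 230 and 228 CPM in WT and at 15.9, 21.6 and 34.7 CPM in Hom livers (-3.24, adjusted p = 0.000492). Lpl, lipoprotein lipase itself, which the adult liver makes at a low level, rose from 45.6, 37.1 and 38.3 CPM to 198, 190 and 221 CPM (2.33, adjusted p = 0.000137). Mlxipl, a carbohydrate-responsive transcription factor, fell by 1.05 and Lipc, hepatic lipase, fell by 0.93, whereas Srebf1, an insulin-responsive transcription factor, rose by 0.68 on the log2 scale (adjusted p = 0.00274, 0.00657 and 0.0276). Srebf1 lost its call without WT replicate 2 or WT replicate 3 (adjusted p = 0.0758 and 0.0847).

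Other plasma carriers split in direction. Of 12 tested carriers besides the 9 genes, 5 fell and 2 rose. Those that fell include Afm, described above, and Ttr, which was also a hepatocyte marker. Ttr, the thyroxine carrier transthyretin, read 7176, 7106 and 6867 CPM in WT and 1805, 2039 and 2006 CPM in Hom livers (-1.85, adjusted p = 0.000486). Rbp4, the retinol carrier that circulates with transthyretin, fell by 1.04 on the log2 scale, Serpina6, the corticosteroid carrier, by 1.34 and Apoh by 0.84 (adjusted p = 0.00164, 0.00272 and 0.00275). The carriers that rose were Hp, described above, and the copper protein ceruloplasmin, Cp, from 1403, 1209 and 1031 CPM to 3820, 2882 and 2886 CPM (1.40, adjusted p = 0.00223).

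Of 18 further hepatokines, 8 fell and 1 rose, a share of 44.4% lower against 20.1% of all tested genes. Angptl6 fell from 13.5 to 15.6 CPM in the WT livers to 1.44 to 1.51 CPM in the Hom livers (-3.30, adjusted p = 9.42e-05). Igfbp2, a binding protein of insulin-like growth factors, fell by 1.61 and Lect2, a leukocyte chemotaxin, fell by 1.37 on the log2 scale (adjusted p = 0.000383 and 0.00256). Fgl1, a fibrinogen-like acute-phase protein, rose from 443, 132 and 113 CPM to 1245, 515 and 612 CPM (1.79, adjusted p = 0.0494) and lost its call in DESeq2, without a filter on low counts (adjusted p = 0.054 and 0.0524) and without any 1 of 5 livers, all except WT replicate 1 (adjusted p = 0.065 to 0.146).

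**Figure D3:**
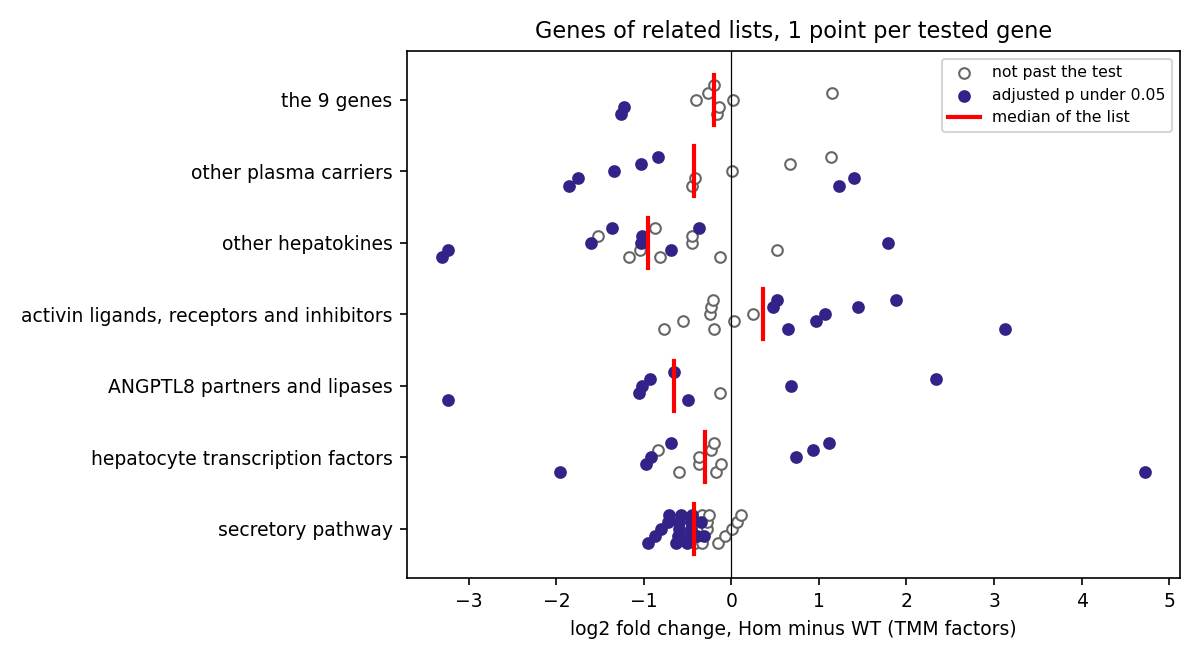
Log2 fold change (Hom minus WT, TMM factors) of each tested gene in 7 lists, filled where the adjusted p was under 0.05 and open otherwise, with a red bar at each list's median. Points of the activin list that passed the test are all above 0, those of the secretory pathway are all below 0, and the 9 genes have 2 filled points.

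Of 16 hepatocyte transcription factors, 4 fell and 4 rose, 25% each against 20.1% and 21.5% of all tested genes (7 fell without WT replicate 1). Hnf4a, a master regulator of hepatocyte genes, fell by 0.69 and Cebpb, a factor of the acute-phase response, by 0.92 on the log2 scale (adjusted p = 0.00745 and 0.00385). Dbp, which was named for binding the D site of the albumin promoter and follows the circadian clock, rose from 0.34, 1.60 and 3.38 CPM to 59.6, 49.9 and 29.2 CPM (4.72, adjusted p = 0.0016), and Nfil3, a repressor that binds the same sites, fell by 1.96 on the log2 scale (adjusted p = 0.00188). Replicate 1 had the most Alb in both groups, with the most Dbp of the Hom livers and the least Dbp of the WT livers. The part of collection time in these values was not tested. Of 30 genes of the secretory pathway, 18 were lower and none was higher, but with library size alone 0 were lower and 4 higher, and the count lower was 6 without WT replicate 3 and 5 without Hom replicate 2 or Hom replicate 3. Fcgrt, the receptor that returns albumin to the circulation, fell by 0.65 and Dab2, an endocytic adaptor, rose by 0.69 on the log2 scale (adjusted p = 0.00157 and 0.00282).

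These directions rest on the scaling. TMM factors were 0.81 to 0.92 in the WT and 1.09 to 1.23 in the Hom libraries, and with library size alone the median log2 fold change of all tested genes moved from 0.00 to 0.45. On that scale 4.65% of genes were called lower and 47.6% higher. Alb (-0.82, adjusted p = 0.0144) and Inhbc (-0.78, adjusted p = 0.00894) were still called lower, and Hpx was called higher (1.54, adjusted p = 0.0196). Ahsg, Fetub, Gc, Angptl8 and Inhbe turned positive, to between 0.10 and 0.31, and none of them passed the test. Against the median of 0.45 these 5 values lay lower, as they did against 0 under TMM. On library size alone the transcription factors had 1 gene lower and 5 higher, the ANGPTL8 partners 2 and 2, the carriers 5 and 4, the hepatokines 6 and 2, and the activin list 0 and 9. Hnf4a, Cebpb, Lipc and Fcgrt kept their sign there without passing (adjusted p = 0.131, 0.0528, 0.0869 and 0.232).

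**Figure D4:**
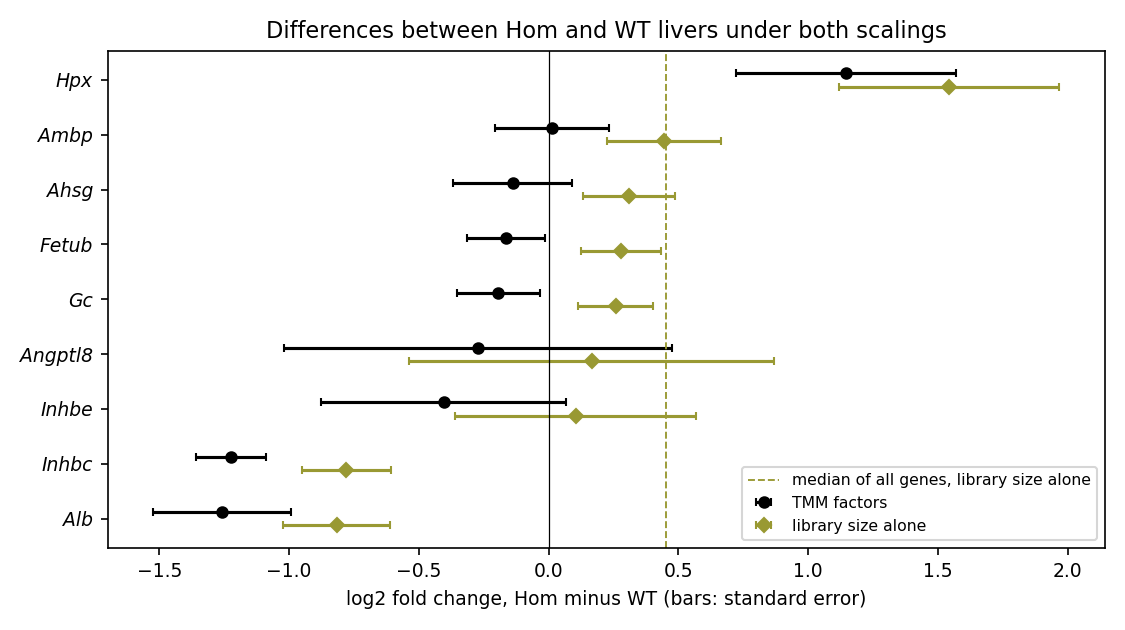
Log2 fold change (Hom minus WT) and its standard error for the 9 genes with TMM factors (black circles) and with library size alone (olive diamonds), with the median of all genes under the latter as a dashed line at 0.45. Alb and Inhbc lie below 0 and Hpx above 0 under both scalings, while 5 genes change sign.

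The count ratio of each gene to Alb in the same liver needs no scaling factor. All these ratios share the Alb count. A gene at the same TMM-normalised CPM in both groups would thus show a ratio about 2.39-fold higher in Hom livers. Per 100 Alb counts, Hpx gave 5.54, 2.71 and 3.01 counts in the WT livers and 25.5, 18.5 and 15.5 counts in the Hom livers, a 5.44-fold higher ratio. Ahsg gave 7.73, 9.85 and 10.8 counts in WT and 22.0, 19.9 and 18.8 counts in Hom livers, 2.15-fold higher. The ratios of Fetub, Gc and Ambp were 2.13-fold, 2.10-fold and 2.41-fold higher. Those of Ahsg, Fetub, Gc and Ambp thus lay near the value that the TMM-scaled fall of Alb alone gives, and that of Hpx lay above it. That yardstick does depend on the scaling. With library size alone Alb fell by 0.82 on the log2 scale. The log2 ratio differences of Ahsg, Fetub, Gc and Ambp, 1.07 to 1.27, lay above that. For Ahsg, Fetub, Gc, Ambp and Hpx every Hom liver exceeded every WT liver (exact two-sided permutation p = 0.1 each, the smallest possible, and 0.16 after adjustment over 8 ratios). Ratios to Alb were not computed for all genes, so how common such a separation is was not tested. Angptl8 (exact permutation p = 0.4) and Inhbe (exact permutation p = 0.5) overlapped between the groups. The ratio of Inhbc was 0.077, 0.062 and 0.070 in WT and 0.064, 0.087 and 0.067 in Hom livers, a log2 difference of 0.06 with overlapping groups (exact permutation p = 0.8). Inhbc thus went down by about as much as Alb, from a far lower level.

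**Figure D5:**
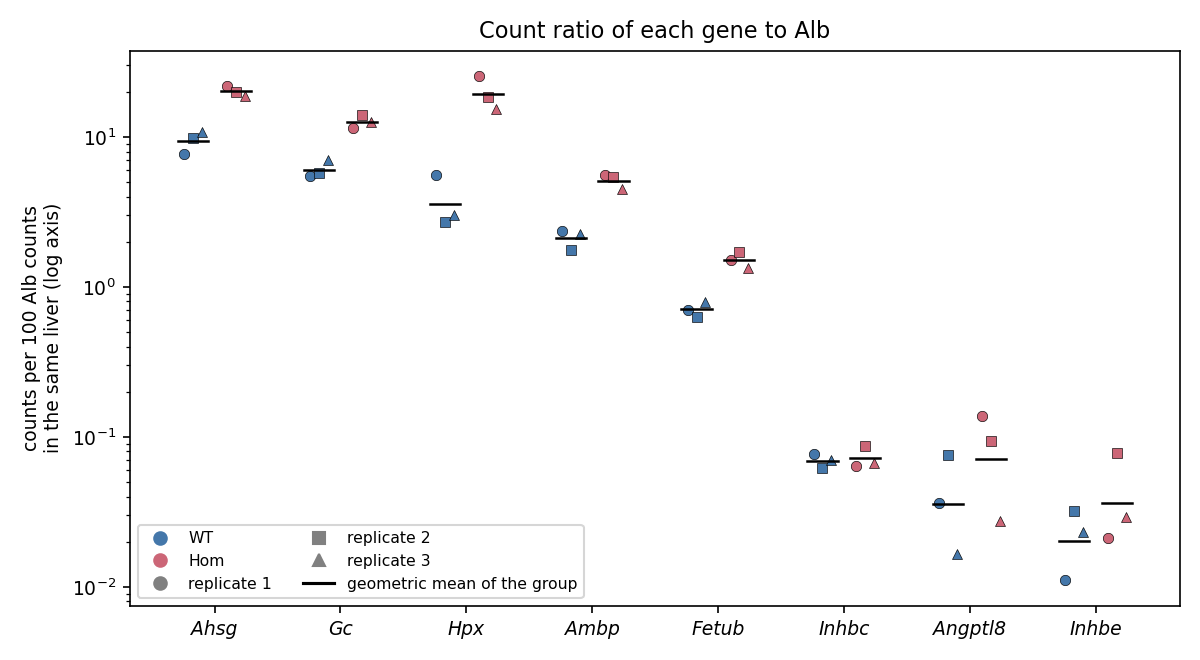
Estimated counts of 8 genes per 100 Alb counts of the same liver (log axis), WT in blue and Hom in red, with bars at the geometric mean of 3 livers. For Ahsg, Gc, Hpx, Ambp and Fetub the 3 Hom livers lie above the 3 WT livers, and for Inhbc the groups overlap.

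The order of the 9 transcripts by TPM, a level per length, changed at one place. In WT livers Alb was followed by Ahsg (10450 ± 714 TPM, SD, n = 3), Gc (5615 ± 617), Hpx (4558 ± 2833), Ambp (2918 ± 883), Fetub (801 ± 151), Angptl8 (89.6 ± 63.4), Inhbc (60.5 ± 18.0) and Inhbe (16.2 ± 7.21). In Hom livers Hpx stood second at 14649 ± 4891 TPM (SD, n = 3), ahead of Ahsg (14526 ± 2290) and Gc (7518 ± 176). Hpx overlapped with both Gc and Ambp among the WT livers and with Ahsg among the Hom livers, so its place between them was not set beyond the spread. Angptl8 and Inhbc overlapped in WT livers, and Angptl8 reached from 36.1 to 193 TPM in Hom livers. Among all genes of a liver, Hpx ranked between 12 and 48 in WT and between 3 and 7 in Hom livers.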

How the data were processed

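RNA from 6 mouse livers was extracted with Trizol and sequenced on the DNBSEQ platform. The submitters' processing notes name HISAT2 2.0.4, Bowtie2 2.2.5, RSEM 1.2.12 and the build mm9. The authors deposited estimated counts per gene, not scaled between libraries, with FPKM and TPM per liver; 6 deposited mean columns carry crossed group names for all 17975 genes and were not used. Only 65.9% of the estimated counts were whole, so they were rounded. In R 4.3.3, edgeR 4.0.16 (filterByExpr, TMM, quasi-likelihood test) compared 3 Hom with 3 WT livers, and Benjamini-Hochberg adjusted p-values under 0.05 over 13805 genes were called. Library totals were 19349418 to 19730236 estimated counts, a depth at which the number of mice limited precision for all but the lowest genes. The authors' TPM values ordered genes and their FPKM values gave lengths.

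The 9 genes, gene lists and tests were chosen with earlier results of these data known. Named genes are the 9, Nek7, up to 5 called genes per list, family neighbours and nearest patterns; Mlxipl, Lipc, Hnf4a, Cebpb, Dock6 and the second nearest pattern, among others, were named after their values were seen. Gene positions are from GENCODE M21 and upstream sequences from RefSeq (GRCm38.p6, all 9 genes matched); the files carry no coordinates. P-values measure only the spread between these 6 mice, whose litters are not given. Alternatives were library size alone, upper-quartile factors, other filters, DESeq2 1.42.0, a gene-length correction (loess), a replicate block and leaving out each liver.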

Additional observations from a re-analysis of the deposited data

How the results depend on the processing

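Of 126 re-computed fold changes of the 9 genes, 111 kept their direction and their side of the threshold. Genes called lower numbered 642 with library size alone and 575 when a 2-fold change was also required, and 1767 to 2750 when 1 liver was left out; genes called higher numbered 6574 and 1825 under the same 2 settings. Leaving out 1 liver gave 1 to 2 of the 9 genes lower and 0 to 1 higher: Alb missed the threshold without Hom replicate 3 (-1.26, adjusted p = 0.0639) and Hpx passed it without WT replicate 1 (1.63). One of the 9 genes, Hpx, was also higher with library size alone. Signs turned with library size alone for Ahsg (0.31), Fetub (0.28), Gc (0.26), Angptl8 (0.17), Inhbe (0.10), Hrg (0.035), Kng1 (0.15), Kng2 (0.35), Inhbb (0.24) and Dock6 (0.29), and for Kng2 with upper-quartile factors (0.0085). Dock6 passed the test there (adjusted p = 0.0392). Leaving out 1 liver turned Ambp (-0.067 without WT replicate 2, -0.062 without WT replicate 3, -0.19 without Hom replicate 1, in a range up to 0.17), Angptl8 (0.48 without WT replicate 2 and 0.16 without Hom replicate 3, in a range from -1.02), Inhbe (0.064 without WT replicate 2, from -0.96), Kng2 (0.086 without WT replicate 1 and 0.056 without Hom replicate 2, from -0.32) and Inhba (-0.074 without WT replicate 3 and also without Hom replicate 1 or 3, in a range up to 0.12), and a length correction turned Inhba (-0.051). The cause was not tested.

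Samples with the same replicate number did not deviate together over all genes (correlations -0.04, -0.03 and 0.01). No WT liver correlated best with the Hom liver of its own number. These correlations cannot exclude that mice of 1 number were linked, for example by litter, which is not given. With the replicate block 2214 genes were lower and 2383 higher, and 1 of the 9 genes, Hpx, was called higher (1.18, adjusted p = 0.0134). Under the block 6 proliferation and 4 erythroid markers were higher and 1 activin gene was lower.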

Other observations

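Nearest patterns of the other genes over the 6 livers, by root mean square difference of centred log2 CPM among 8254 genes, were Shld2 for Alb (0.088), Fn1 for Ahsg (0.059), Ppp3r1 for Fetub (0.042), Wwp1 for Gc (0.016), Zbtb37 for Ambp (0.066), Cars for Inhbc (0.11), Rarres1 for Inhbe (0.36) and Noct for Angptl8 (0.67). Noct encodes nocturnin, a deadenylase with a daily rhythm. Genes with little variation are near many others, so these values are comparable only beside each gene's own range, which was 0.34 for Gc and 2.84 for Angptl8.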
